A study of Sus scrofa with 599 samples.

Results

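Backfat of pigs on a normal diet (NC) was compared with backfat of pigs that had gained weight (WG), in all samples of the upper layer of backfat (ULB), the subcutaneous depot, whose column in the deposited tables matches a deposited sample. This gave 43 RNA-seq samples (5 NC and 38 WG) of 236 in the series, and 44 Hi-C samples (5 NC and 39 WG) of 240. The series holds 599 samples from 4 adipose tissues (ATs), measured by RNA-seq, by Hi-C and by ChIP-seq of H3K27ac. The other 3 lie inside the abdomen: fat of the greater omentum (GOM), of the mesentery (MAD) and behind the peritoneum (RAD). All pigs were adult females of Bama, a Chinese miniature breed, 2 years old at the start. NC pigs stayed on a normal diet and WG pigs ate a high-fat diet for 22 weeks. The 5 NC pigs carry the replicate numbers 2, 5, 7, 9 and 12, and are written NC 2, NC 5 and so on.

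Subcutaneous fat stores triglyceride in adipocytes, which sit in a collagen-rich matrix with blood vessels, nerves, immune cells and the fibroblast-like progenitors from which new adipocytes arise. When energy intake exceeds use, adipocytes take up and make more lipid, the matrix is remodelled to give room to larger cells, and macrophages and lymphocytes can accumulate. Sympathetic nerves that release noradrenaline drive lipolysis in this tissue. The comparison asks which of these parts changed in backfat with the diet, and which of the changes do not hang on a single NC pig.

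The libraries carried marks of subcutaneous fat, clearest against GOM. EN1, a homeobox gene known from the lineage of dorsal skin, was at 7.31 to 14.5 TPM (a length-corrected share of all transcripts) in NC backfat. In WG backfat it was at 3.67 to 23.9 TPM, against at most 0.174 TPM in NC GOM. In RAD it ran from 1.57 to 4.18 TPM in NC and from 1.87 to 8.25 TPM in WG, which overlaps WG backfat. WT1, a transcription factor of the mesothelium that covers visceral fat, had a median of 0.627 TPM in NC and 0.154 TPM in WG backfat. Its median was 71.8 TPM in NC GOM, 8.46 TPM in NC MAD and 8.8 TPM in NC RAD. One WG backfat library held 23.8 TPM of WT1. Estimated counts on protein-coding genes (PCGs) ran from 8229496 to 22939420 per NC library and from 13228217 to 22303106 per WG library. PCGs took 92.4% of all TPM in NC 2, 84.6% in NC 5, 94.4% in NC 7, 82.1% in NC 9 and 96.3% in NC 12. In the WG libraries this share ran from 86.1% to 96.3%, so that NC 5 and NC 9 lay below every WG library. NC 5 also had the lowest median correlation with the WG libraries, 0.938 (Pearson's r of log2(TPM + 1) across genes), and NC 9 the next lowest, 0.952. The counts of calls are therefore given with and without both.

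Of 13600 PCGs tested, 69 (0.507%) were differentially expressed genes (DEGs) higher in WG backfat and 254 (1.87%) were lower, together 323 (2.38%). A DEG had an adjusted p below 0.05 (Benjamini-Hochberg, edgeR's 2-sided quasi-likelihood test) and a fold change above 1.5. No PCG of the 13600 had NC and WG values that did not overlap, and the overlapping ranges hold for each gene described here. In the other depots the same rule called 26.7% of PCGs in GOM, 10.7% in MAD and 16.7% in RAD, with more NC samples (9, 12 and 12). NC libraries there also held low PCG shares of TPM, down to 74.8% in GOM, 75.7% in MAD and 79.5% in RAD. Most NC libraries of GOM lay between 74.8% and 79.97%, and nearly all WG libraries of GOM lay above that. The part of this share in the calls of these depots was not tested. The split of the backfat calls depended on the scale. limma on log2(TPM + 1) called 222 higher and 95 lower, and on that scale the median log2 fold change of all genes was 0.13, against 0.01 with edgeR.

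Most of the backfat calls hung on NC 5 and NC 9. The lower calls numbered 254 with all samples, 112 without NC 5, 111 without NC 9 and 44 without both, and the higher calls 69, 24, 23 and 4. All 69 higher DEGs kept their sign without both, and their median log2 fold change was 0.99 with all samples and 0.95 without both. Of the 254 lower DEGs, 218 kept their sign, and their median went from -1.27 to -0.67. Without NC 7, 121 were higher and 315 lower. Without NC 2 the higher calls numbered 46, and without NC 12 there were 68 higher and 251 lower. Of the 323 DEGs, 10 were called in 0 of the 5 fits that leave out one NC sample, and 57 were called in all 5: 8 higher (0.0588% of the PCGs tested) and 49 lower (0.36%). In addition, 25 of these 57 were called without NC 5 and NC 9 together, 1 higher (0.00735%) and 24 lower (0.176%). A term for the PCG share of TPM left 22 higher and 79 lower calls, and 24 of the 25 genes kept their call with it.

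**Figure D1:**
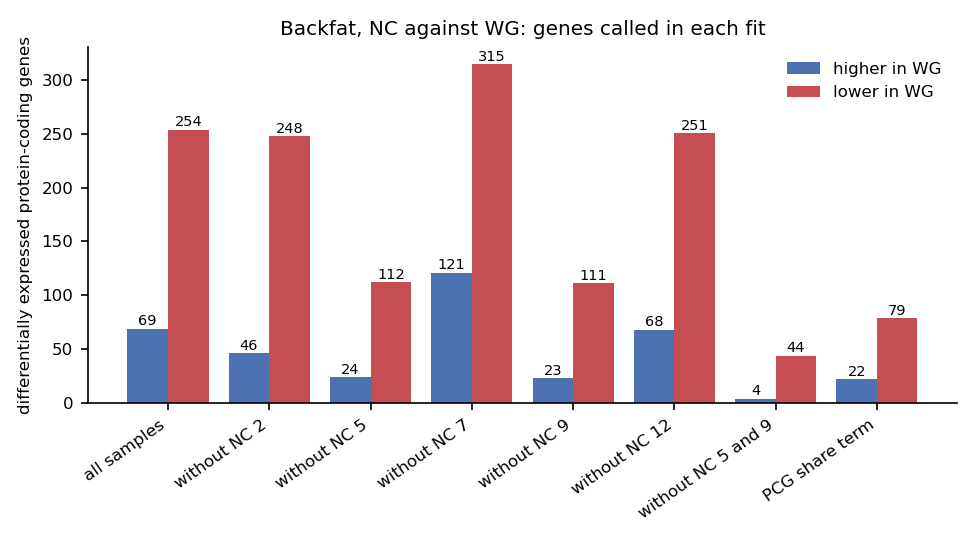
Bars give the number of differentially expressed PCGs higher (blue) and lower (red) in WG backfat in each fit; the axis starts at 0. The tallest pair is the fit without NC 7 (121 and 315) and the shortest the fit without NC 5 and NC 9 (4 and 44).

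Clear examples of genes decided by NC 5 and NC 9, chosen after their values were seen, were RPS20, PIGF and IQCG. RPS20 codes for a ribosomal protein whose many processed copies in mammalian genomes can share reads with it, so its level is uncertain. Its values were 612, 4753, 343, 3172 and 1068.5 TPM in NC 2, 5, 7, 9 and 12, and 213 to 1381 TPM (median 615) in WG. Only NC 5 and NC 9 were above all WG libraries, and the log2 fold change moved from -1.86 (adjusted p 0.000127) to -0.11 without them. PIGF, a gene of glycosylphosphatidylinositol anchor synthesis, read 188 and 146 TPM in NC 5 and NC 9, against 12.999 to 20.29 TPM in the other NC libraries and a median of 14.8 TPM in WG. Its log2 fold change moved from -2.45 to -0.05. IQCG, named for its calmodulin-binding IQ motif, read 17.3 and 10.7 TPM in NC 5 and NC 9 and 0.724 to 2.24 TPM in the other NC libraries, and moved from -3.31 to -0.85. These genes were called in every fit that leaves out one NC sample, so that test alone does not show when 2 NC libraries carry a call together. With the term for the PCG share of TPM, RPS20 was at -1.505 and lost its call. Of the 57 genes called in all 5 of those fits, 40 kept their call with the term. Beyond that fit, whether the low PCG share of TPM of these libraries plays a part in such calls was not tested.

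The 25 genes that were called in all 7 fits (all samples, each NC sample left out, and NC 5 and NC 9 left out together) are the core of the comparison. Of these, 21 carry a symbol, 20 lower and 1 higher in WG. The 12 with the largest fall and the single higher gene follow, then the other 8, which were named after their values were seen. In bulk tissue, fewer cells of a type and less RNA per cell cannot be told apart.

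**Figure D2:**
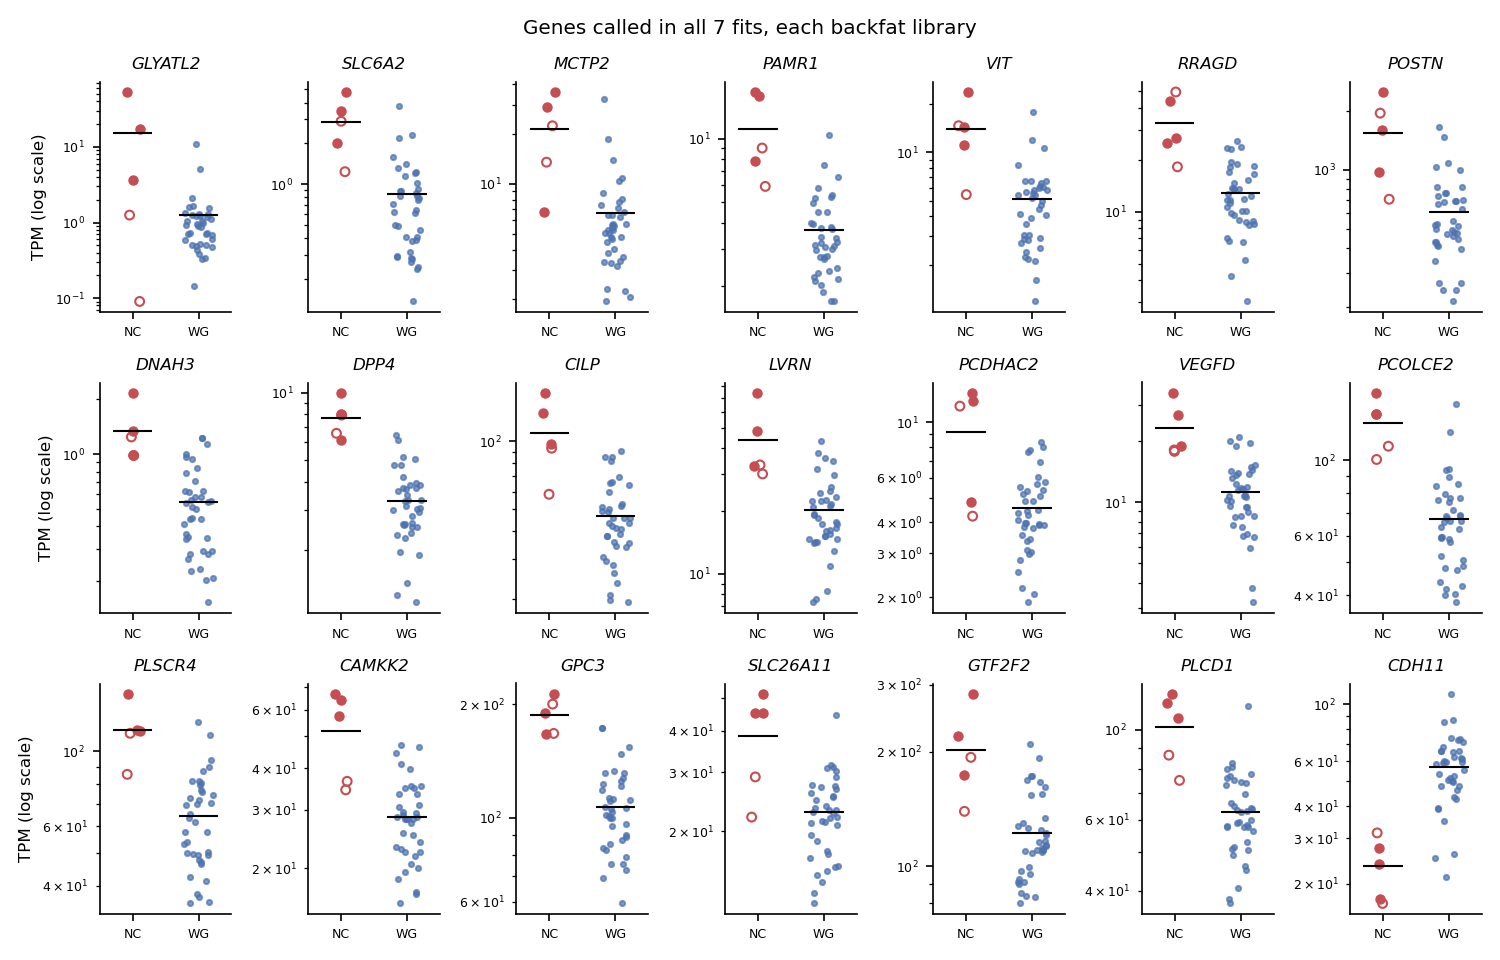
Each panel plots the TPM (log scale) of 1 gene in the 5 NC (red; open circles are NC 5 and NC 9) and 38 WG (blue) backfat libraries, with a bar at the group mean. The first 20 genes have a lower mean in WG and CDH11 a higher one, and in every panel the ranges overlap.

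Periostin (POSTN, chr11:13225183-13258973, minus strand), a secreted protein of collagen-rich matrix, was the most abundant gene of the set. Its level was 2489, 708, 1593, 1942.5 and 978.5 TPM in NC 2, 5, 7, 9 and 12, and 214 to 1657 TPM (median 519) in WG. Of the 38 WG libraries, 28 were below every NC library. The log2 fold change was -1.50 ± 0.29 (SE; edgeR adjusted p 0.0012), from -1.68 to -1.26 with one NC sample left out and -1.54 without NC 5 and NC 9 (adjusted p 0.0303). POSTN was the gene of the 25 that lost its call with the term for the PCG share of TPM (-1.21, adjusted p 0.0528).

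CILP (chr1:163236864-163271222, minus strand), a matrix protein first known from cartilage that binds TGF-beta, read 134, 58.3, 164, 93.4 and 97.6 TPM in the NC libraries. In WG it read 19.4 to 90.5 TPM (median 43.4), with 29 of 38 libraries below all NC. CILP thus had a log2 fold change of -1.36 ± 0.24 (adjusted p 0.000316). Vitrin (VIT, chr3:103379127-103492989, minus strand), another matrix protein, read 11.129, 5.46, 14.4, 14.6 and 23.7 TPM in NC and 1.18 to 17.7 TPM (median 4.84) in WG. NC 5 lay within the bulk of the WG values, and 23 WG libraries were below it. The log2 fold change of VIT was -1.55 ± 0.32 (adjusted p 0.00262).

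PAMR1 (chr2:25422390-25591615, plus strand), a secreted protein with a peptidase-like domain, separated the groups more than most. It read 15.9, 5.93, 16.6, 9.01 and 7.80 TPM in NC against 1.69 to 10.4 TPM (median 3.16) in WG, and 35 of 38 WG libraries were below all NC. Its log2 fold change was -1.74 ± 0.24 (adjusted p 7.96e-06), and -1.95 without NC 5 and NC 9.

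DPP4 (chr15:68661764-68742961, minus strand) codes for a dipeptidyl peptidase that cleaves incretin hormones and marks interstitial progenitors of subcutaneous fat. It had the tightest NC values of the rule-named genes: 8.06, 7.95, 6.15, 6.59 and 9.97 TPM. WG libraries read 1.16 to 6.45 TPM (median 3.09), and 36 of 38 were below all NC. The log2 fold change of -1.38 ± 0.21 (adjusted p 2.88e-05) stayed between -1.48 and -1.34 with one NC sample left out and was -1.35 without NC 5 and NC 9 (adjusted p 0.007).

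SLC6A2 (chr6:29931650-29981636, minus strand) codes for the noradrenaline transporter, which clears the transmitter of sympathetic nerves. It was a low gene: 3.49, 2.91, 4.79, 1.24 and 2.01 TPM in NC and 0.136 to 3.77 TPM (median 0.679) in WG. Of the WG libraries, 32 were below all NC. Its log2 fold change was -1.92 ± 0.39 (adjusted p 0.00219), and -2.11 without NC 5 and NC 9 (adjusted p 0.0247).

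GLYATL2 (chr2:12280093-12337509, plus strand), an enzyme that joins fatty acyl chains to glycine, had the largest fall among the genes with a symbol and the widest NC values. It read 53.3, 0.0905, 17.1, 1.26 and 3.66 TPM in NC 2, 5, 7, 9 and 12, and 0.144 to 11.007 TPM (median 0.922) in WG. NC 2 and NC 7 were above every WG library, NC 5 was below every one, and 0 WG libraries were below all NC. The log2 fold change of -3.74 ± 0.48 (adjusted p 1.16e-06) shrank to -2.20 without NC 2 (adjusted p 0.0149) and grew to -4.44 without NC 5 and NC 9.

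RRAGD (chr1:57374047-57424058, minus strand), a Rag GTPase that reports amino acid supply to mTORC1, read 43.9, 18.2, 25.1, 49.6 and 26.8 TPM in NC and 3.01 to 25.7 TPM (median 11.8) in WG. The WG libraries below all NC numbered 31, and the log2 fold change was -1.54 ± 0.27 (adjusted p 0.000232). MCTP2 (chr7:84725754-84962691, minus strand), a membrane protein with calcium-binding C2 domains, read 29.1, 13.5, 6.76, 22.4 and 35.8 TPM in NC and 1.95 to 32.5 TPM (median 5.34) in WG. Its log2 fold change was -1.86 ± 0.33 (adjusted p 0.000384), with 28 WG libraries below all NC.

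LVRN (chr2:120117584-120193728, plus strand), a cell-surface aminopeptidase, had a log2 fold change of -1.27 ± 0.23 (adjusted p 0.000345), from 73.7, 30.2, 48.3, 33.3 and 32.9 TPM in NC to a median of 18.1 TPM in WG. DNAH3 (chr3:24911160-25127017, plus strand), a heavy chain of axonemal dynein, was near 1 TPM in NC (0.982 to 2.17) and at a median of 0.505 TPM in WG, with 34 of 38 WG libraries below all NC and a log2 fold change of -1.43 ± 0.29 (adjusted p 0.00173). PCDHAC2, a clustered protocadherin whose isoforms share 3′ exons, so that estimated counts may be split among them, read 4.22 to 13.1 TPM in NC and 1.91 to 8.33 TPM in WG, with a log2 fold change of -1.197 ± 0.224 (adjusted p 0.000658). Only 19 WG libraries were below all NC for PCDHAC2. No position was matched to it.

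The other 8 named genes fell less. GPC3 (chrX:109536495-109973605, minus strand), a cell-surface proteoglycan that modulates growth factor signals, had NC values of 190, 167, 166, 200.2 and 213 TPM and WG values of 59.4 to 173 TPM (median 105). With 36 of 38 WG libraries below all NC and a log2 fold change of -0.96 ± 0.14, it had the joint second lowest adjusted p of the 21 (7.96e-06). VEGFD, a growth factor of lymphatic vessels, fell by 1.196 on the log2 scale (adjusted p 0.000907), with 34 WG libraries below all NC. PCOLCE2, which enhances the cleavage of procollagen, fell by 1.07 (adjusted p 0.000345, 36 WG libraries). CAMKK2, a kinase upstream of AMPK, fell by 0.98 (adjusted p 0.000232, 29 WG libraries). The phospholipid scramblase PLSCR4 had -0.995, the anion exchanger SLC26A11 -0.89, the general transcription factor subunit GTF2F2 -0.86 and the phospholipase PLCD1 -0.83.

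CDH11 (chr6:25782746-25933753, minus strand), a cadherin of mesenchymal cells, was the single gene called higher in all 7 fits. It read 17.5, 31.5, 27.6, 16.7 and 23.8 TPM in NC and 21.3 to 110 TPM (median 58.7) in WG. Of the WG libraries, 35 of 38 were above every NC library. The log2 fold change was 1.14 ± 0.22 (adjusted p 0.00141), from 1.06 to 1.29 with one NC sample left out and 1.26 without NC 5 and NC 9 (adjusted p 0.027).

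A further set of genes, named after their values were seen, was called whichever single NC sample was left out and lost the call without NC 5 and NC 9, where 3 NC samples remain. Most of those given here kept much of the size of the difference. Over all 49 lower genes called in every fit that leaves out one NC sample, the median went from -1.80 to -1.23 without both. Of these 49, 44 kept their sign. The angiotensin receptor AGTR1 had -1.15 with all samples and -1.05 without both (adjusted p 0.102), the one-carbon enzyme SHMT1 -1.52 and -1.42 (0.0711), and the coagulation inhibitor TFPI -1.80 and -1.56 (0.16). FST, which codes for the activin antagonist follistatin, read 31.6, 44.5, 10.7, 40.9 and 38.4 TPM in NC and had a median of 12.3 TPM in WG, so NC 7 alone lay among the WG libraries. Its log2 fold change was -1.46, and -1.03 without both (adjusted p 0.148). Higher in WG were the transcription factor ETV4 (log2 fold change 2.11, and 1.92 without both), the Wnt antagonist FRZB (1.26 and 1.08), the lipogenic regulator MID1IP1 (0.92 and 0.81), the cation channel TRPV2 (1.03 and 0.99), and the immune signalling genes TASL (1.298 and 0.96) and LAX1 (1.17 and 1.10). For ETV4, MID1IP1, TRPV2 and LAX1, 35 of 38 WG libraries were above all NC. ETV4 was low, at 0.216 to 0.534 TPM in NC and a median of 1.51 TPM in WG.

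Of 37 gene lists for fat and its cell types, each count can be set beside the 0.507% higher and 1.87% lower over all PCGs tested and a median log2 fold change of 0.01. Among the lists with at least 6 members tested, the largest positive medians were in those for inflammation (26 members tested, 21 positive, median 0.62), macrophages (17 tested, 12 positive, 0.47), MHC class II (6 of 6 positive, 0.38), proliferation (13 of 16, 0.38) and lymphocytes (11 of 15, 0.37). Without NC 5 and NC 9 these medians were 0.53, 0.44, 0.40, 0.39 and 0.37, and no member was then called higher. In the lymphocyte list, 2 members were called higher, the T-cell genes CD28 (log2 fold change 1.38, adjusted p 0.0225) and CD2 (0.77, 0.0449). CD2 lost the call whichever NC sample was left out, and CD28 without NC 2, NC 5 or NC 12. LYVE1, a hyaluronan receptor of lymphatic vessels and of some tissue macrophages, went the other way from the macrophage list. It read 180, 58.7, 99.3, 65.1 and 66.8 TPM in NC and 19.4 to 90.1 TPM in WG, with a log2 fold change of -1.11 (adjusted p 0.00443). Without NC 2 it was -0.71 and no longer called, and without NC 5 and NC 9 it was -1.34 (adjusted p 0.0163).

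The members tested in the lists of lipid handling held 0 calls. Of 19 lipogenesis genes, 15 had a positive log2 fold change (median 0.30, and 0.21 without NC 5 and NC 9) and 0 were called in either direction. ACLY, which makes cytosolic acetyl-CoA for fatty acid synthesis, read 97.3, 107, 193, 80.3 and 147 TPM in NC and 116 to 1446 TPM (median 275) in WG. Its log2 fold change was 1.33 (adjusted p 0.06), and 29 WG libraries were above all NC. THRSP, a lipogenic regulator, had 1.35 (adjusted p 0.0914). Lipid droplet, lipolysis, triglyceride synthesis, fatty acid oxidation, fatty acid uptake and cholesterol lists also held 0 calls. Lipoprotein lipase (LPL) was at -0.58 (adjusted p 0.0539), hormone-sensitive lipase (LIPE) at -0.57 (0.131) and the insulin receptor (INSR) at -0.57 (0.0686). The erythroid list summed to 164 to 1844 TPM in NC and 60.8 to 6026 TPM in WG, so blood content varied within both groups, and its part in any result was not tested.

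Adipokines were mixed. Leptin (LEP), the hormone that reports fat mass, read 249, 293, 458, 207 and 141 TPM in NC and 126 to 1016 TPM (median 595) in WG. Its log2 fold change was 1.04 (adjusted p 0.0634), and 28 WG libraries were above all NC. With the term for the PCG share of TPM it was called higher (1.34, adjusted p 0.0371). Adiponectin (ADIPOQ) read 2383 to 5187 TPM in NC and had a median of 2404.5 TPM in WG, with -0.58 (adjusted p 0.0898). GPX3, a secreted glutathione peroxidase, was called lower (-1.39, adjusted p 0.0317) with 32 of 38 WG libraries below all NC, but kept the call only when NC 7 was the one left out.

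The list named fibrillar matrix also holds other matrix genes, among them type IV and type VI collagens and laminins. It pointed down: 23 of 33 members were negative, the median was -0.33 (-0.30 without NC 5 and NC 9), and 3 were called lower and 0 higher. The called members were POSTN, the microfibril protein MFAP5 (-1.17, adjusted p 0.00487) and the small proteoglycan decorin (DCN, -0.64, adjusted p 0.00675). MFAP5 lost its call without NC 2 (-0.92), and DCN without NC 9 (-0.57). The fibrillar collagens themselves were not called. COL3A1 had 0.19, COL1A2 -0.30 and COL1A1 -0.32, and COL1A1 turned to 0.22 without NC 9. Its NC values ran from 307 to 2132 TPM and its WG values from 74.8 to 4559 TPM. The progenitor list held 2 lower calls in 12 members, DPP4 and MFAP5. Of the 12, 8 were negative and 4 positive, with a median of -0.185 (-0.12 without NC 5 and NC 9). The general progenitor receptor PDGFRA was at -0.29 (adjusted p 0.395), PI16 at -0.10 (0.92) and PDGFRB at 0.37 (0.613). Levels of other tissues in the backfat libraries overlapped between the groups: skeletal muscle markers summed to 6.30 to 14.8 TPM in NC and 6.57 to 56.8 TPM in WG, keratinocyte markers to 2.94 to 8.87 and 0.965 to 6.96 TPM, mesothelial markers to 11.9 to 32.97 and 1.65 to 132 TPM, and adipocyte markers to 12500 to 17380 and 8910 to 33070 TPM.

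**Figure D3:**
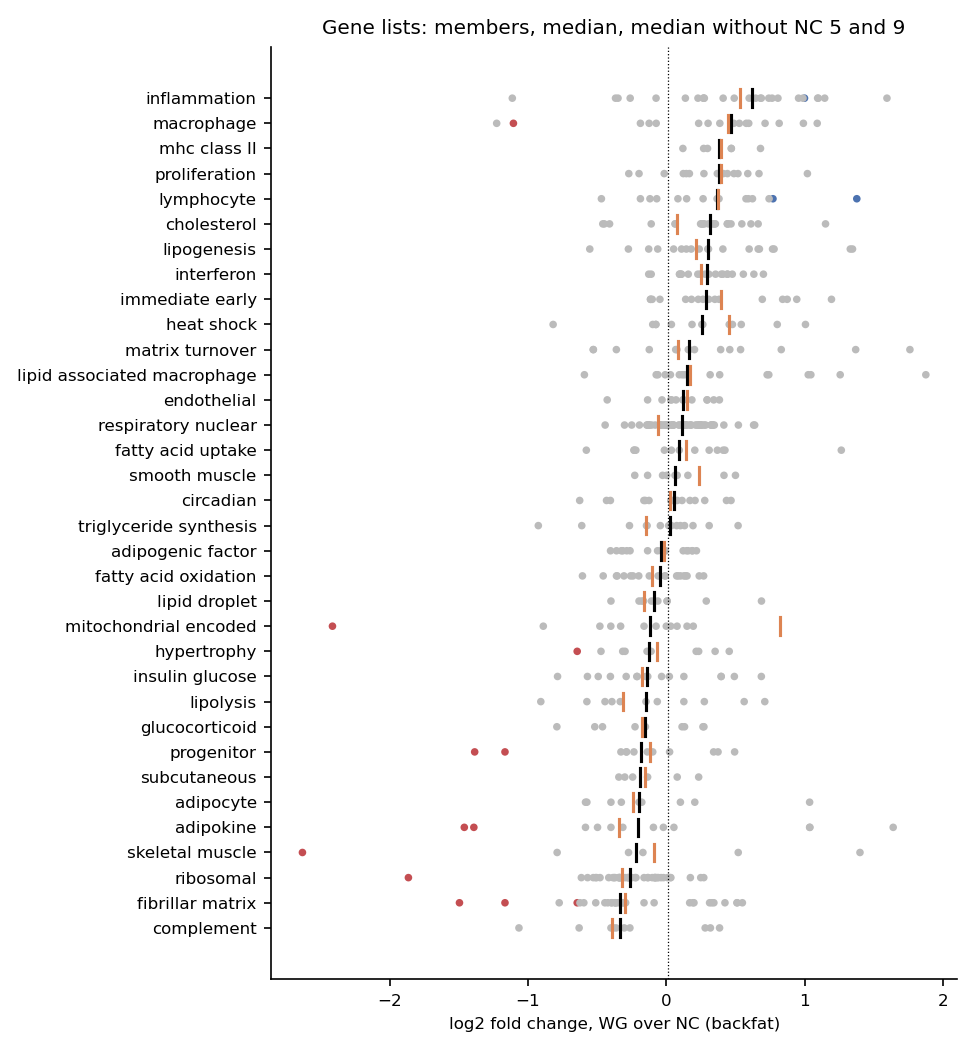
Points give the log2 fold change (WG over NC backfat) of each tested member of the lists with 6 or more tested members (erythroid with 3, mesothelial with 2 and keratinocyte with 1 are not drawn; blue, called higher; red, called lower; grey, not called), black bars the list median and orange bars the median without NC 5 and NC 9; the dotted line is the median of all genes. Of the lists drawn, inflammation has the highest median (0.62) and the complement and fibrillar matrix lists the lowest (both -0.33).

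Mitochondrial transcripts varied widely between libraries of both groups. They summed to 18920, 149600, 29200, 169600 and 129900 TPM in NC 2, 5, 7, 9 and 12, and to 12260 to 250000 TPM (median 59650) in WG. The median log2 fold change of the 12 tested genes of the mitochondrial genome went from -0.12 to 0.82 without NC 5 and NC 9, and to -3.40 with the term for the PCG share of TPM. The mitochondrial ND1 (-2.41, adjusted p 0.0364) and the muscle gene ACTN3 (-2.63, adjusted p 0.0272) were called with all samples and were at -0.15 and -0.20 without both. Of 44 ribosomal protein genes, 38 were negative (median -0.26, -0.32 without NC 5 and NC 9, and 0.03 with the term for the PCG share), and RPS20 was the 1 called.

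Long non-coding RNAs (lncRNAs) and transcripts of uncertain coding potential (TUCPs) also depended on single NC samples. Of 8527 lncRNAs tested, 211 were called higher (2.47%) and 546 lower (6.4%), and of 1199 TUCPs 34 were higher (2.84%) and 93 lower (7.76%). Without NC 5 the lncRNA calls numbered 81 and 232, without NC 9 183 and 362, and without NC 12 117 and 540. In all 5 fits with one NC sample left out, 35 and 107 lncRNAs stayed called, and without NC 5 and NC 9 as well, 16 higher and 17 lower. For TUCPs the last counts were 2 higher and 2 lower.

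The response in backfat was tested against the mean response of GOM, MAD and RAD in 1 edgeR fit of all 8 groups. Of 14770 PCGs, 81 (0.548%) differed. Of these, 21 differed with a higher response in backfat (0.142%) and 60 with a lower one (0.406%), by an adjusted p below 0.05 and a difference above 1.5-fold. This fit has no block for the replicate number, which the depots share and which the labels do not tie to a pig. The fit with the number as a block used limma-voom in place of edgeR. By it 1658 PCGs differed, 1104 with a higher and 554 with a lower response in backfat. Without the block, limma-voom called 114 PCGs, 52 with a higher and 62 with a lower response, so the balance of directions turned with the block. In edgeR with a term for the PCG share of TPM and no block, 99 PCGs differed, 25 with a higher and 74 with a lower response. Of the 21 genes named above, 10 were among the 81 PCGs of the fit without block or term, all with a more negative response in backfat. These genes were picked by their call in backfat, so their number here is a description. The difference of the log2 responses was -3.61 ± 0.41 (SE) for GLYATL2 (adjusted p 7.21e-12), -2.29 ± 0.52 for SLC6A2 (0.00766), -1.81 ± 0.38 for CILP (0.00287) and -1.57 ± 0.27 for PAMR1 (0.000118). It was -1.25 for LVRN, -1.23 for VEGFD, -1.08 for PCOLCE2, -1.05 for PCDHAC2, -0.96 for GPC3 and -0.83 for CAMKK2. The response of CILP in GOM was positive, with a log2 fold change of 0.96 (adjusted p 0.0108), and that of SLC6A2 in RAD was 1.11 (adjusted p 0.0231).

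Other genes of the set moved in several depots. MCTP2 fell in each visceral depot, by 0.96 in GOM, by 1.41 in MAD and by 1.73 in RAD on the log2 scale, and its difference in backfat was -0.50 (adjusted p 0.716). RRAGD had -0.65, -0.90 and -1.07, and DNAH3 -1.21, -0.71 and -0.87. CDH11 rose in MAD (0.86) and RAD (1.21) and was at -0.16 in GOM. POSTN differed between depots: it fell by 1.80 in MAD, rose by 1.07 in RAD (adjusted p 0.034) and was at -0.62 in GOM (adjusted p 0.211). DPP4 had -0.69 in RAD, -0.19 in GOM and 0.06 in MAD, and its difference in backfat of -1.10 had an adjusted p of 0.0655.

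**Figure D4:**
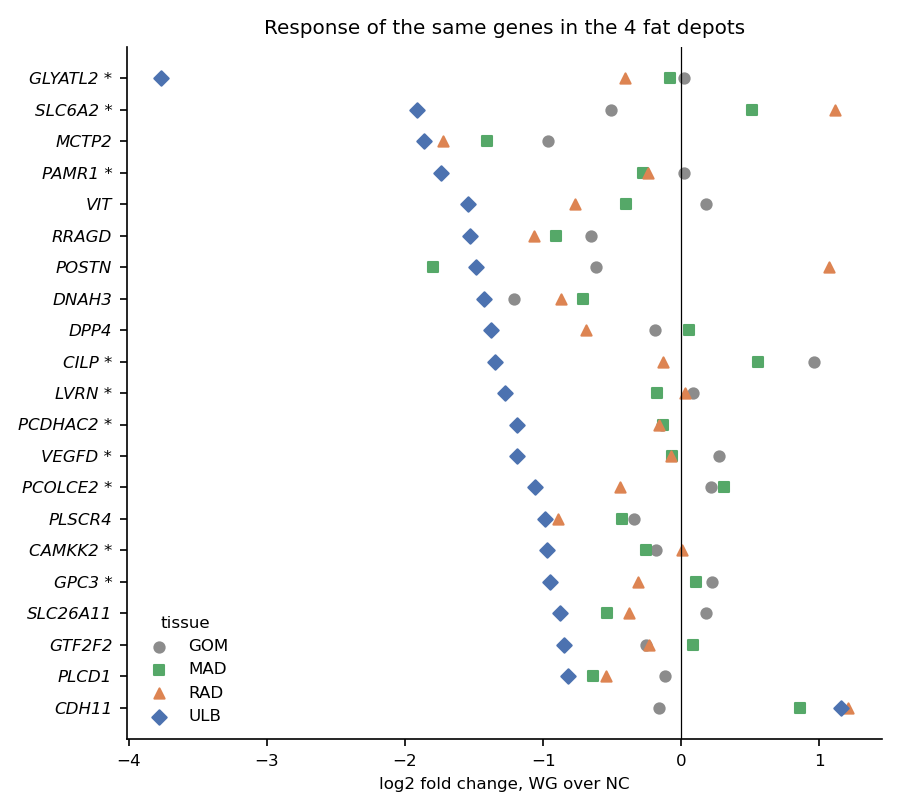
Each symbol is the log2 fold change of WG over NC in 1 depot for the 21 named genes, and an asterisk marks the 10 genes whose backfat response differed from the mean of the other 3 depots. GLYATL2 lies at -3.77 in backfat and between -0.41 and 0.02 elsewhere, while MCTP2 is negative in all 4.

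Hi-C gave an A-B index, a score without unit that is positive in compartment A (open, gene-rich chromatin) and negative in compartment B, for 113298 autosomal bins of 20 kb. The share of bins in A was 48.5% in NC 2, 42.9% in NC 5, 48.0% in NC 7, 45.1% in NC 9 and 45.8% in NC 12, against 45.3% to 50.4% (median 48.6%) in WG. NC 5 and NC 9 lay below every WG sample. The index was on average shifted up in WG: the median difference over all bins was 0.25. By limma, 11018 bins (9.72%) had a higher index in WG and 1146 (1.01%) a lower one. Of these, 4813 (4.25%) and 545 (0.481%) were A/B variables, bins that stayed in the same compartment in over 80% of the samples of each group and differed by more than 0.75.

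The number of calls depended on single NC samples and on the scale. Without NC 5, 701 bins were higher and 99 lower, and without NC 12, 2953 and 269. Without NC 5 and NC 9, 28 were higher and 13 lower, and the A/B variables numbered 22 and 10. After quantile normalization of the index, which takes out the shift between samples, 1648 bins (1.45%) were higher and 1606 (1.42%) lower, and the A/B variables were 792 higher (0.699%) and 877 lower (0.774%), so the excess of higher bins was gone. Of the A/B variables, 387 higher and 41 lower were called whichever single NC sample was left out, and 40 higher and 18 lower were called so both with and without quantile normalization. A/B switches, with over 80% of samples in opposite compartments, were 74 to A (0.0653%) and 4 to B (0.00353%), and 23 (0.0203%) and 17 (0.015%) with quantile normalization. Bins that went from at most 30% of NC samples in A to at least 70% of WG samples numbered 603 (0.532%), and 63 (0.0556%) went the other way.

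**Figure D5:**
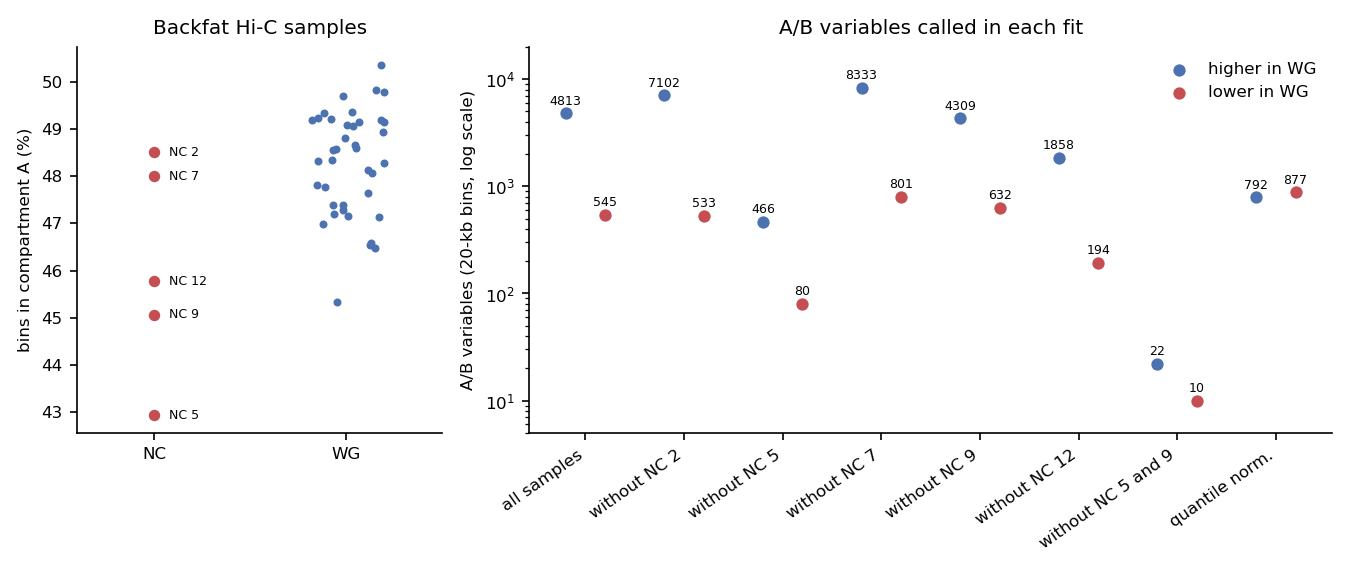
Left, the percentage of bins in compartment A in each backfat Hi-C sample; right, the number of A/B variables (log scale) higher (blue) and lower (red) in WG in each fit. NC 5 (42.9%) and NC 9 (45.1%) lie under every WG sample, and the higher A/B variables go from 4813 with all samples to 466 without NC 5 and 22 without NC 5 and NC 9.

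The longest run of A/B variables higher in WG was chr6:35520001-36040000 (Sscrofa11.1), 26 bins deep in compartment B in which no gene with a symbol starts. Its mean index was -3.26, -5.09, -3.51, -3.78 and -4.76 in NC 2, 5, 7, 9 and 12, and -4.00 to -2.03 (median -2.77) in WG, and the difference was 1.21 as deposited and 0.86 after quantile normalization. The next runs, of 17 bins each, were chr4:76680001-77020000, where SOX17, a factor of endoderm and endothelium, and the photoreceptor gene RP1 start, and chr14:25520001-25860000. The longest lower runs lay in compartment A close to the start of their chromosomes: chr6:580001-720000 (7 bins, ACSF3 and CDH15), chr6:280001-400000 (6 bins, among them CDK10 and CHMP1A) and chr2:80001-160000 (4 bins, IFITM1, IFITM3, IFITM5, NLRP6 and PGGHG). The interferon-induced IFITM genes are close copies of each other. The last run kept most of its difference after normalization (-0.93 and -0.77), while chr6:580001-720000 went from -1.03 to -0.38. These runs are those of the fit with all samples. None held over its whole length in all 5 fits that leave out one NC sample. The longest runs that did were of 5 bins for higher A/B variables, at chr2:147220001-147320000, where GRXCR2 and SH3RF2 start, and at chr4:76880001-76980000. For lower A/B variables the longest was of 2 bins, at chr4:2920001-2960000. The longest switches to A were on chromosome 3, at 124620001-124680000 and 124800001-124860000 (3 bins each). The first had NC values of -1.35 to -0.14 and a WG median of 0.75.

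The compartment of the expression-named genes was measured in separate libraries. Of the 12 rule-named genes with a bin at their start, 0 had an adjusted p below 0.05 in 2-sided exact Wilcoxon rank-sum tests of NC against WG. The number at an unadjusted p below 0.05 was 2, and the lowest adjusted p was 0.155, or 0.103 after quantile normalization. Without NC 5 and NC 9, 0 of the 12 had an unadjusted p below 0.05 (lowest 0.137). Over 10376 PCGs with a bin at their start, 408 (3.93%) started in an A/B variable. Of the 52 higher DEGs with a bin, 2 did, and of the 162 lower DEGs, 5. The median index difference at the start was 0.36 for higher DEGs, 0.08 for lower DEGs and 0.18 for all PCGs, and 0.19, -0.10 and 0.03 after quantile normalization. These medians are descriptions, with no test.

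Topologically associating domains (TADs), stretches of a chromosome that contact themselves more than their neighbours, were fewer in WG. The NC samples held 5381, 5689, 5590, 5554 and 5669 TADs (NC 2, 5, 7, 9 and 12; mean 5577 ± 123, SD, n = 5), and the WG samples 4847 to 5674 (mean 5295 ± 208, SD, n = 39). The groups overlapped, with 24 of 39 WG samples below all NC. The difference of -282 had a 2-sided exact permutation p of 0.00427, and it ran from -331 to -254 with one NC sample left out, with exact permutation p of 0.00174 to 0.0202. It was -252 without NC 5 and NC 9 (exact permutation p 0.0456). The median TAD length was 320 kb in all 5 NC samples and 320 to 360 kb in WG, a mean difference of 15.6 kb (exact permutation p 0.0187, and 0.0679 without NC 5 and NC 9), which is less than the 20-kb step of the calls. The depth of each Hi-C sample was not used here, so its part in the number of TADs was not tested. Of 10411 boundaries collapsed within 100 kb, 11 were in under 30% of NC and at least 70% of WG samples, and 37 the reverse. These were 9 and 43 without NC 5 and NC 9.

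H3K27ac, a histone mark of active promoters and enhancers, was deposited as 1 table of pooled samples for NC backfat (3 samples) and as tables for the WG subgroups 5 (4 samples) and 6 (6 samples), so no test was possible. The tables held 19558, 19753 and 19395 regions, which covered 432, 283 and 344 Mb, and 998, 708 and 788 of them were marked as super-enhancers. Of the NC regions, 54.0% shared at least 1 base with a region of subgroup 5 and 68.8% with one of subgroup 6. Of the regions of these subgroups, 75.3% and 81.5% shared a base with an NC region. The region that reached within 10 kb of GLYATL2 was 127 kb long in NC, where it was marked as a super-enhancer. In subgroups 5 and 6 it was 22.2 and 12.6 kb long. Such lengths are of whole regions, which can run far past the gene. Regions that reached within 10 kb of PCOLCE2 summed to 7.8 kb in NC and 0 in both WG tables. For POSTN they summed to 53.6 kb in NC and to 4.2 and 19.2 kb in WG. But for CDH11, which was higher in WG, they summed to 52.4 kb in NC and to 3.2 and 12.4 kb in WG. The NC table covered more of the genome as a whole. The maximum signal per base at GLYATL2 was 0.256 in NC and 0.224 and 0.562 in WG.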

How the data were processed

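Total RNA depleted of rRNA, Hi-C and H3K27ac ChIP-seq were measured. The authors estimated abundance with kallisto 0.43.0 on Sscrofa11.1 and deposited estimated counts (none normalized, non-whole, rounded here) and TPM. The deposited A-B index is a score that the authors computed per 20-kb bin from balanced, BNBC-normalized contact matrices. TADs are deposited as positions without a value. The deposited H3K27ac tables hold the authors' ROSE signal for regions of pooled samples, made with BWA 0.7.15, SAMtools 1.3.1 and SICER. Samples were grouped by their labels, and 9 of 245 columns match no deposited sample and were not used. By their names 7 are NC backfat and 2 NC GOM, so 5 NC samples of backfat remained. The members and lists were chosen with earlier results of these data known.

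PCGs above 0.5 TPM (lncRNAs and TUCPs 0.1) in at least 80% of a group were tested with edgeR 4.0.16 (TMM, quasi-likelihood) in R 4.3.3. Alternatives were each NC sample left out, NC 5 and NC 9 left out, a term for the PCG share of TPM, replicate number as a block, DESeq2 1.42.0, limma 3.58.1, edgeR's exact test, RLE, filterByExpr and no filter. The index was tested with limma, and permutations and exact tests used scipy 1.17.1 in Python 3.11.15. Genes were named if they carried a symbol and were called in all 7 fits (the 12 largest folds per direction), with up to 4 of the lowest p in each list. Other names were chosen after their values were seen, and 1 gene of the lists is not reported here. Gene positions are RefSeq's on Sscrofa11.1, the build of the files. The labels do not name the animal of a sample, so p-values measure the spread between these samples. Depth is 8229496 to 22939420 estimated counts per library. For the index no depth was used, so only the spread between samples gives its precision.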

Additional observations from a re-analysis of the deposited data

Results flagged for a closer look

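A test of 69 groups of 5 NC values for a library far from the others marked 1, where chance marks about 1 in 20: CFB, complement factor B, in NC 12, whose TPM of 25.1 stood above 6.51 to 11.5 in the other NC libraries (gap over range 0.733). CFB was not called (log2 fold change -1.06, edgeR adjusted p 0.162).

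The response to the diet in backfat differed from the mean response of GOM, MAD and RAD, by edgeR's test of that difference, for 81 PCGs. Among the genes named in the report these were GLYATL2 (difference of log2 responses -3.61), SLC6A2 (-2.29), CILP (-1.81), PAMR1 (-1.57), LVRN (-1.25), VEGFD (-1.23), PCOLCE2 (-1.08), PCDHAC2 (-1.05), GPC3 (-0.96) and CAMKK2 (-0.83). The number of such genes ran from 51 to 150 with one NC backfat sample left out and was 478 without NC 5 and NC 9 together, of which 328 had the higher response in backfat, against 21 of 81 with all samples.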

How the results depend on the processing

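The counts are given as higher, then lower in WG. With one NC sample left out they ran from 23 to 121 and 111 to 315 for PCGs, 81 to 314 and 232 to 648 for lncRNAs, 9 to 47 and 41 to 109 for TUCPs, 701 to 14593 and 99 to 1285 for bins, 466 to 8333 and 80 to 801 for A/B variables, 82 to 170 and 4 to 9 for switches (74 and 4 with all samples), 682 to 1337 and 104 to 186 for bins that changed A frequency (603 and 63 with all samples), 113 to 145 for boundaries (48) and 51 to 150 for the difference between depots. With 4 NC samples the classes that need over 80% or 70% of samples change by construction. Without NC 5 and NC 9 the counts were 4 and 44 for PCGs, 74 and 89 for lncRNAs, 10 and 14 for TUCPs, 28 and 13 for bins, 22 and 10 for A/B variables, 106 and 43 for switches, 236 and 123 for A frequency, 25 for the 57 genes and 478 for the difference between depots. A term for the PCG share gave 22 and 79 PCGs, 65 and 93 lncRNAs, and 12 and 20 TUCPs. DESeq2 gave 189 higher PCGs, the exact test 105, filterByExpr 411 lower, and no filter 178 and 946 PCGs, 333 and 1089 lncRNAs, and 170 lower TUCPs. limma gave 222 and 95 with a pseudocount of 1, and 318 and 72 with 0.1, with the median of all genes at 0.13 and 0.14.

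NC and WG share the replicate numbers 2, 5, 7, 9 and 12, but are different pigs. The deviations of same-numbered samples correlated at -0.30, -0.17, -0.50, 0.38 and -0.21, so the samples share only a number. With the replicate block 0 PCGs, 0 lncRNAs, 0 TUCPs and 0 bins were called (405 PCGs at an unadjusted p below 0.05 by edgeR), and 0 of the 57 genes, while 25 of the 25 kept their sign. In this block within backfat, a WG sample whose number no NC sample carries is taken up by its own term. The difference then rests only on the samples with the shared numbers, paired between different pigs, so the 0 calls cannot show whether the 57 genes hold. For the difference between depots, where the block is the number across depots, 1658 PCGs were called, 1104 with a higher and 554 with a lower response in backfat (consensus correlation 0.452). That fit used limma-voom, which gave 52 and 62 without the block, while edgeR without the block gave 21 and 60.

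Quantile normalization gave 1648 higher bins, 792 and 877 A/B variables, 23 and 17 switches, and 277 and 236 bins of changed A frequency. With NC 2, 5, 7, 9 or 12 also left out, in this order, it gave 1049, 177, 763, 539 and 338 higher and 1082, 170, 850, 700 and 345 lower bins, 679, 109, 495, 325 and 206 higher and 758, 105, 615, 485 and 225 lower A/B variables, 52, 43, 48, 41 and 34 switches to A and 37, 22, 33, 42 and 21 to B, and 436, 401, 404, 442 and 413 bins from high to low A frequency (420 to 523 the other way). An adjusted p below 0.01 left 1810 and 136 bins and 1219 and 115 A/B variables, a difference above 0.5 gave 8709 and 964, classes at 80% and 20% gave 296 and 13 bins and 16 boundaries, and an overlap of 50% of both regions 4162 and 7479. The TAD and index alternatives without NC 5 and NC 9, those with quantile normalization and one NC sample left out, and limma-voom and the fit without NC 5 and NC 9 for the difference between depots, were chosen after seeing the data.

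Of the gene values recomputed, 822 kept direction and side of the threshold, 109 lost the call, 26 gained it and 3 turned: ACTN3 with the PCG share term (0.25), and COL1A1 without NC 9 (0.22; from -0.55 to 0.22 over the single NC samples left out) and without NC 5 and NC 9 (0.23). The number and median length of TADs kept direction and call with each NC sample left out. Without NC 5 and NC 9 the difference in median length, 15.6 kb, lost its call (exact permutation p 0.0679). The cause of these changes was not tested. With 5 NC samples, and libraries of 8229496 counts or more, small differences of low genes could not be detected.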
